A study of Mus musculus with 17 samples.

Results

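The transcripts of fatty acid oxidation and ketone body metabolism were measured by RNA-seq in mouse kidney cortex. The panel held 40 genes chosen by name, and all 40 were found by symbol among the 48795 genes of the count table. It covered 2 regulators, 5 genes of the carnitine shuttle, 9 of the mitochondrial β-oxidation spiral, 5 of auxiliary mitochondrial steps and electron transfer, 11 of the peroxisome, 4 of fatty acid activation and thioester cleavage, 3 of ketone body metabolism, and Angptl4, a secreted inhibitor of lipoprotein lipase. There were 17 libraries in 4 groups. WT (n = 5) were wild-type mice. GCERAd (n = 5) were ATF4 knockouts in which CreER was driven by part of the Ggt1 promoter, active in proximal tubules, and both ATF4 alleles were floxed; tamoxifen was given on 2 consecutive days at 6 weeks of age. TRACK (n = 3) carried the transgenic kidney cancer model TRACK, and GCERAdT (n = 4) were labelled TRACK with the ATF4 knockout, with no tamoxifen schedule given for them. The mice of the study were fasted for 16 h before the kidneys were taken, according to its methods, and the cortex holds other cell types besides the proximal tubule, the cell type in which the Cre was active. The labels give 3 to 4 mice per cohort, fewer than the 5 libraries of WT and of GCERAd, so that some libraries may share a mouse and the p-values may then be too small.

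Proximal tubules reabsorb most of the filtered solutes and draw much of their energy from fatty acids. A fatty acid is bound to coenzyme A by acyl-CoA synthetases, carried into mitochondria by the carnitine shuttle and shortened by dehydrogenation, hydration, a further dehydrogenation and thiolysis, while very long and branched chains are first shortened in peroxisomes. In fasting, the nuclear receptor PPARα, as a dimer with RXR, raises the transcription of many of these genes, and the coactivator PGC-1α, the product of Ppargc1a, adds to it. Ketone bodies made in the liver are taken up by the kidney and returned to acetyl-CoA by Bdh1, Oxct1 and Acat1.

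Levels between genes were compared as fragments scaled to library size and exon length (FPKM), computed from the counts and merged exon lengths. In WT cortex the peroxisomal bifunctional enzyme Ehhadh had the highest mean level, 382 ± 59.7 FPKM (SD, n = 5), followed by Oxct1, the enzyme that activates acetoacetate in ketone body use, with 347 ± 23.8 FPKM. The medium-chain dehydrogenase Acadm followed with 337 ± 103 FPKM and the mitochondrial thiolase Acaa2 with 311 ± 29.8 FPKM, and the spreads of these 4 neighbours overlapped. At the lower end stood Ppara with 14.3 ± 1.83 FPKM and Acox3, a peroxisomal oxidase of branched chains, with 14.5 ± 2.33 FPKM, which also did not differ beyond their spread. The muscle carnitine palmitoyltransferase Cpt1b had 0.116 ± 0.147 FPKM against 65.4 ± 4.32 FPKM for its liver-type counterpart Cpt1a. Cpt1b was below the minimum mean of 1 FPKM in every group and was left out of the tests, so that 39 of the 40 genes were tested in each comparison.

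Gene pairs of near-identical sequence limit what a read count can assign. The coding sequences of the thioesterases Acot1 (cytosolic) and Acot2 (mitochondrial) were identical at 96% of 1239 aligned bases in GENCODE M21, and 43.5% of all 50-base windows of Acot1 also occurred in Acot2. For the peroxisomal thiolases Acaa1a and Acaa1b, 96.5% of 1275 aligned bases were identical and 38.1% of the 50-base windows were shared. The stretches of 60 coding bases in which each pair differed most are shown on the coding strand, with capitals at the differing bases, because reads are told apart only at such positions.
Acot1: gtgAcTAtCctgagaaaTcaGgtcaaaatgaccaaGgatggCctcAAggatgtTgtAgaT
Acot2: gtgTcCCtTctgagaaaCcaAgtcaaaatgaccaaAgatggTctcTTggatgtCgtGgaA
Acaa1a: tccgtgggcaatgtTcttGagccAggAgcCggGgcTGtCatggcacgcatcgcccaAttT
Acaa1b: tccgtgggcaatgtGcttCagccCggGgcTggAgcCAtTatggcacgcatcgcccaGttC
The Acot stretches held 13 differences and lie in exon 3 of both genes on the plus strand of GRCm38, at chr12:84016942-84017001 and chr12:83992664-83992723. The Acaa1 stretches held 11 differences and run from exon 2 into exon 3, within chr9:119341912-119342775 on the plus strand for Acaa1a and chr9:119155750-119156597 on the minus strand for Acaa1b. How reads with several matches were counted is not given in the sources used here, so the values of these 4 genes are uncertain as to which copy of the pair they belong to.

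Promoter windows of RefSeq (GRCm38.p6, 250 bases before to 50 after each start) were found for 33 of the 40 genes. The PPAR-RXR element was searched as AGGNCANAGGNCA and the ATF4 composite element as TGATGNAA, on both strands, where N is any base. No window of these 33 genes held the first motif, which occurred in 0.451% of all 27025 genes with a window. The second was found in 1 of the 33 genes, Echs1, the short-chain enoyl-CoA hydratase, as TGATGCAA at chr7:140116578-140116585 on the minus strand, and in 4.51% of all genes. With edgeR, all libraries and no block or covariate, Echs1 was not called in any comparison between groups. With the replicate number as a block it was called in GCERAdT against GCERAd (log2 change -0.22, edgeR adjusted p = 0.0343). It was also called there with library kind, described below, as a covariate. DESeq2 called it in GCERAdT against TRACK. An absent match says only that these letters are not in the window.

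Total counts were between 53688512 and 71364561 per library, and levels of a gene are given as counts scaled to library size (CPM). All 5 WT libraries had Xist, the transcript of the inactive X chromosome, at 149 CPM or more and no counts of the Y-linked Ddx3y, whereas the other 12 libraries had at most 6.07 CPM of Xist and at least 49.8 CPM of Ddx3y, so that genotype and sex cannot be told apart in any comparison with WT. Atf4 fell in GCERAd against WT (log2 change -0.38, edgeR adjusted p = 0.0218) but had a log2 change of 0.17 in GCERAdT against TRACK (edgeR adjusted p = 0.367), a count over the whole gene, not over the floxed part alone. The name GCERAdT therefore stands for the libraries labelled so. The libraries were of 2 kinds by the share of their counts on processed pseudogenes, below or above 0.0477%, a split seen in the counts and not given in the labels, with A in WT 1, 3, 4 and 5, GCERAd 1 and 2 and GCERAdT 1 and 2, and B in all others. WT 1 with 2, GCERAd 2 with 3 and GCERAdT 2 with 3, the pairs of unlike kind with the highest correlations of immunoglobulin and T cell receptor V genes (0.72, 0.64 and 0.95), may be repeat libraries of 1 mouse each. Other pairs came near these values, with 0.63 for GCERAd 1 with 5, 0.61 for GCERAd 4 with 5 and 0.90 for TRACK 1 with 2, so that the GCERAd pair is not singled out. The summed level of 7 proximal tubule markers was 6404 to 7886 CPM in WT, 7281 to 10114 CPM in GCERAd, 3974 to 4477 CPM in TRACK and 4309 to 5215 CPM in GCERAdT. In such bulk tissue, fewer cells of a type and less RNA per cell cannot be told apart.

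GCERAd was compared with WT to ask how these transcripts differ with loss of ATF4 in the proximal tubule. Sex, as read from Xist and Ddx3y, differed as well, so genotype and sex cannot be told apart here. CreER and the floxed alleles, absent in wild-type mice, cannot be told apart from the loss of ATF4 either. The study's methods describe tamoxifen for the knockout line only, so it may differ as well. Of the 39 genes tested, 5 rose and 3 fell (edgeR, adjusted p of at most 0.05), where 27.6% of all 11581 genes tested were called, 14.1% higher and 13.5% lower. Log2 changes are given as the log2 fold change ± its standard error. The 5 that rose were Crot, Acat1, Acox3, Acads and Hadh, and the 3 that fell were Acsl1, Acox2 and Ppargc1a. Each of these genes was also called in the same direction in TRACK against WT, where 23% of all genes were called higher and 22.6% lower. Both comparisons use the same WT libraries and hold the same difference in sex, so their calls are not independent. For 6 of the 39 genes no value overlapped between the groups, against 20% of all genes. The median log2 change of the panel was 0.23 beside 0.00 over all genes tested.

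**Figure D1:**
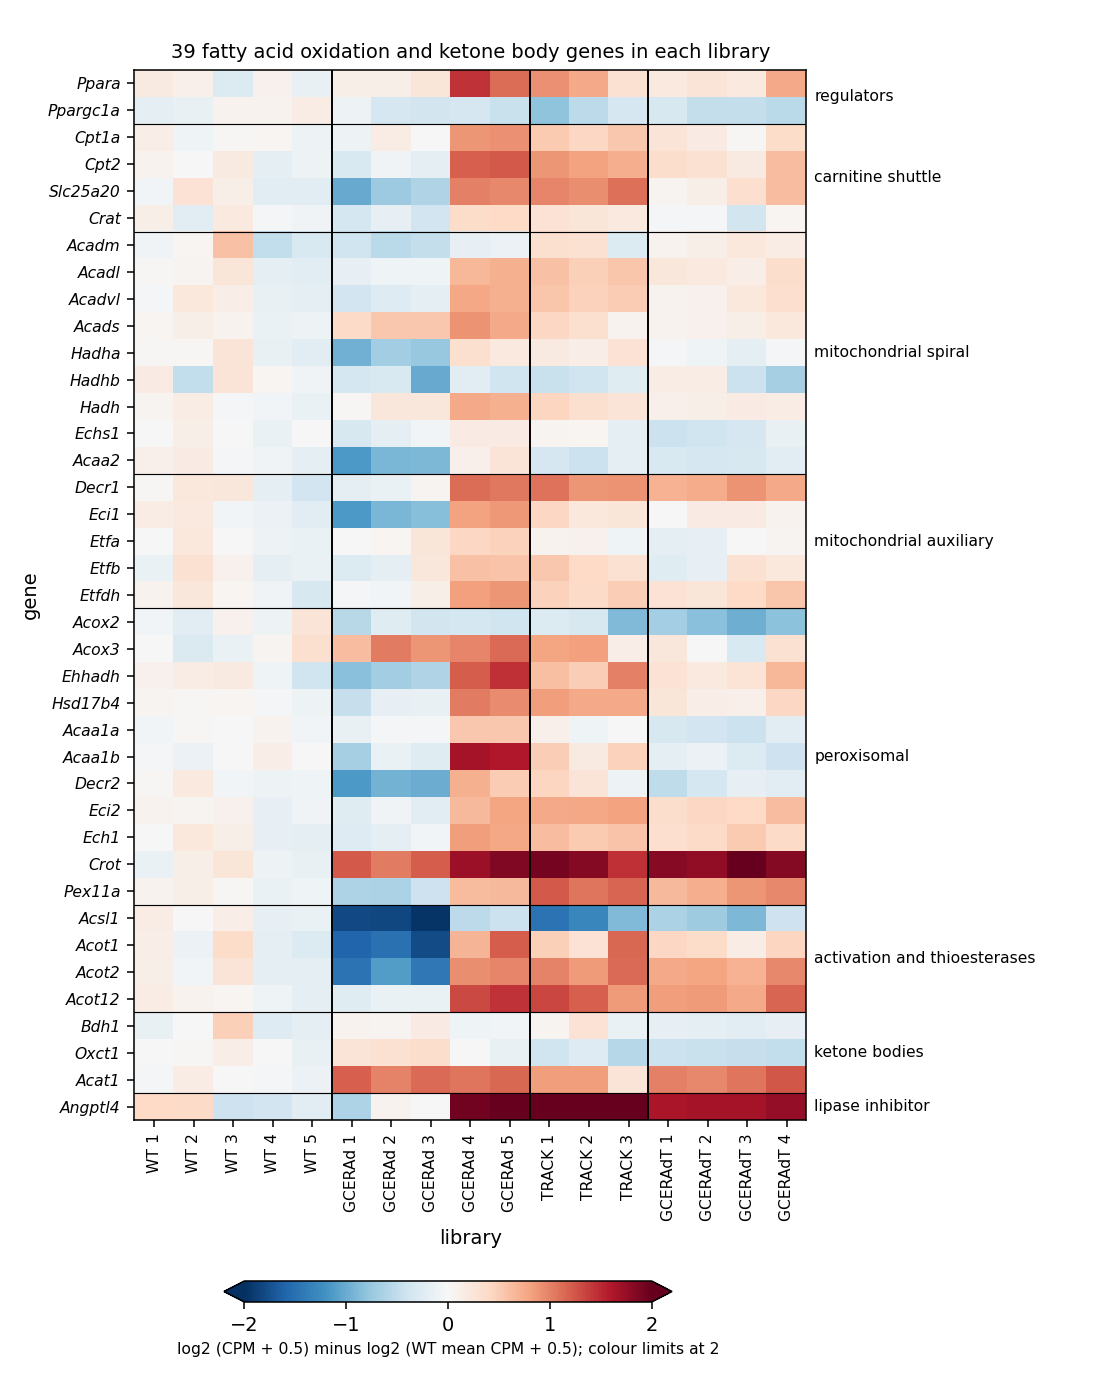
Heat map of 39 genes (rows, by step) in the 17 libraries (columns, by group); the colour gives the log2 level of a library over the WT mean, from CPM with 0.5 added, with blue lower and red higher. Columns GCERAd 1 to 3 are mostly blue or pale and columns GCERAd 4 and 5 mostly red, while Crot and Acat1 are red and Acsl1 blue in all 5.

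Crot, which transfers chain-shortened acyl groups to carnitine for export from peroxisomes (ENSMUSG00000003623, chromosome 5 of GRCm38, 8966033 to 8997324), had the largest rise. It measured 218, 259.7, 282, 223 and 215 CPM in WT 1 to 5 and 558, 491, 558, 787 and 870.0 CPM in GCERAd 1 to 5. Every GCERAd library lay above every WT library, and the log2 change was 1.44 ± 0.15 (edgeR adjusted p = 5.78e-05). Acat1, the mitochondrial acetoacetyl-CoA thiolase that ends ketone body use, had 438, 500.3, 449.9, 442 and 416 CPM in WT against 1033, 894, 983, 941 and 996 CPM in GCERAd. The 5 GCERAd values lay close together, none reached the WT range, and the log2 change was 1.10 ± 0.08 (edgeR adjusted p = 2.1e-06).

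Acox3 had 165, 136, 151, 172 and 208 CPM in WT 1 to 5 and 257, 344, 307, 329 and 365 CPM in GCERAd 1 to 5. All GCERAd libraries were above WT, with a log2 change of 0.93 ± 0.12 (edgeR adjusted p = 0.000226). The short-chain acyl-CoA dehydrogenase Acads had 161, 170.4, 165, 143 and 146 CPM in WT and 206, 227, 228, 292 and 267 CPM in GCERAd. Again the groups did not overlap, and the log2 change was 0.63 ± 0.09 (edgeR adjusted p = 0.000585). Hadh, the hydroxyacyl-CoA dehydrogenase for short and medium chains, had 529, 562, 494, 491 and 460.3 CPM in WT and 517, 595, 592, 859 and 829 CPM in GCERAd. GCERAd 1 lay within the WT range, GCERAd 2 and 3 just above it and GCERAd 4 and 5 far above it, and the call (log2 change 0.41 ± 0.14, edgeR adjusted p = 0.0424) was lost when any 1 of WT 1, 3, 4 and 5 or GCERAd 4 and 5 was left out.

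Acsl1, the main long-chain acyl-CoA synthetase, had the largest fall (ENSMUSG00000018796, chromosome 8). It measured 714, 642, 709.5, 580.1 and 591 CPM in WT 1 to 5 and 185, 183, 165, 449 and 479 CPM in GCERAd 1 to 5. All GCERAd libraries were below WT, GCERAd 1 to 3 furthest, and the log2 change was -1.16 ± 0.29 (edgeR adjusted p = 0.0121). Acox2, the peroxisomal oxidase of bile acid intermediates, had 202, 182, 224, 196 and 253 CPM in WT against 144, 179, 163, 166 and 161 CPM in GCERAd. By a narrow margin no values overlapped, with a log2 change of -0.39 ± 0.09 (edgeR adjusted p = 0.0103). Ppargc1a had 95.3, 97.0, 114, 114 and 120.1 CPM in WT and 101, 85.3, 83.2, 85.3 and 78.9 CPM in GCERAd. GCERAd 1 lay within the WT range, and the log2 change of -0.32 ± 0.09 (edgeR adjusted p = 0.0204) was lost without WT 5.

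The other 31 genes were not called, and for most of them the GCERAd libraries stood in separate ranges rather than near a common mean. In 32 of the 39 genes, GCERAd 4 and 5 both lay above GCERAd 1, 2 and 3, which was the case for 28.2% of all genes tested, and in 2 genes, Bdh1 and Oxct1, both lay below, against 24.2%. In 9 genes the WT libraries lay between them, all above GCERAd 1 to 3 and all below GCERAd 4 and 5, against 1.52% of all genes. These were Acaa1b, Acot1, Acot2, Decr2, Eci1, Ehhadh, Hsd17b4, Pex11a and Slc25a20, of which 5 belong to the peroxisome. The labels give GCERAd as 1 group, and the order was noticed in the values, so these counts describe 5 libraries and no condition.

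Ehhadh (ENSMUSG00000022853, chromosome 16) showed this order plainly: 640.2, 704 and 752 CPM in GCERAd 1 to 3, 2627 and 3123 CPM in GCERAd 4 and 5, and 1205, 1269, 1290.1, 1069.9 and 859.8 CPM in WT 1 to 5. Its log2 change was 0.44 with a standard error of 0.43 (edgeR adjusted p = 0.474). Acot1 had 49.7, 53.5 and 43.3 CPM in GCERAd 1 to 3, 242 and 348 CPM in GCERAd 4 and 5, and 124 to 195 CPM in WT. Acaa1b had 215, 311 and 289 CPM, then 1085 and 1046 CPM, with WT between 317 and 374 CPM. In each case the mean of the 5 GCERAd libraries, such as 147 ± 140 CPM for Acot1 (SD, n = 5), fell where no GCERAd library lay.

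Ppara, Cpt1a and Angptl4 followed the same order, with GCERAd 1 to 3 in or near the WT range. Ppara measured 62.0, 58.6, 45.4, 58.4 and 49.4 CPM in WT 1 to 5 and 59.2, 59.5, 64.7, 149 and 119.5 CPM in GCERAd 1 to 5. GCERAd 1 and 2 lay within the WT range and GCERAd 4 and 5 far above it, with a log2 change of 0.71 ± 0.25 (edgeR adjusted p = 0.0547). Cpt1a, which commits fatty acids to mitochondrial entry, had 545, 469, 506, 512 and 466 CPM in WT and 466, 553, 502, 923 and 942 CPM in GCERAd. Its log2 change was 0.43 ± 0.19 (edgeR adjusted p = 0.118). Angptl4 had 71.3, 70.5, 40.4, 41.3 and 46.1 CPM in WT and 35.0, 56.6, 53.7, 207 and 242 CPM in GCERAd. GCERAd 4 and 5 alone exceeded WT, and the log2 change was 1.12 ± 0.49 (edgeR adjusted p = 0.113).

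None of the 3 ketone body genes showed that order, since GCERAd 4 and 5 both lay below GCERAd 1 to 3 for Bdh1 and Oxct1 and within their range for Acat1. Bdh1, which interconverts hydroxybutyrate and acetoacetate, had 159, 178, 248, 148 and 154 CPM in WT and 187, 184, 199, 168 and 170.2 CPM in GCERAd. The groups overlapped throughout, with a log2 change of 0.03 ± 0.13 (edgeR adjusted p = 0.886). Oxct1 ranged from 1157 to 1405 CPM in WT and from 1152 to 1635 CPM in GCERAd.

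**Figure D2:**
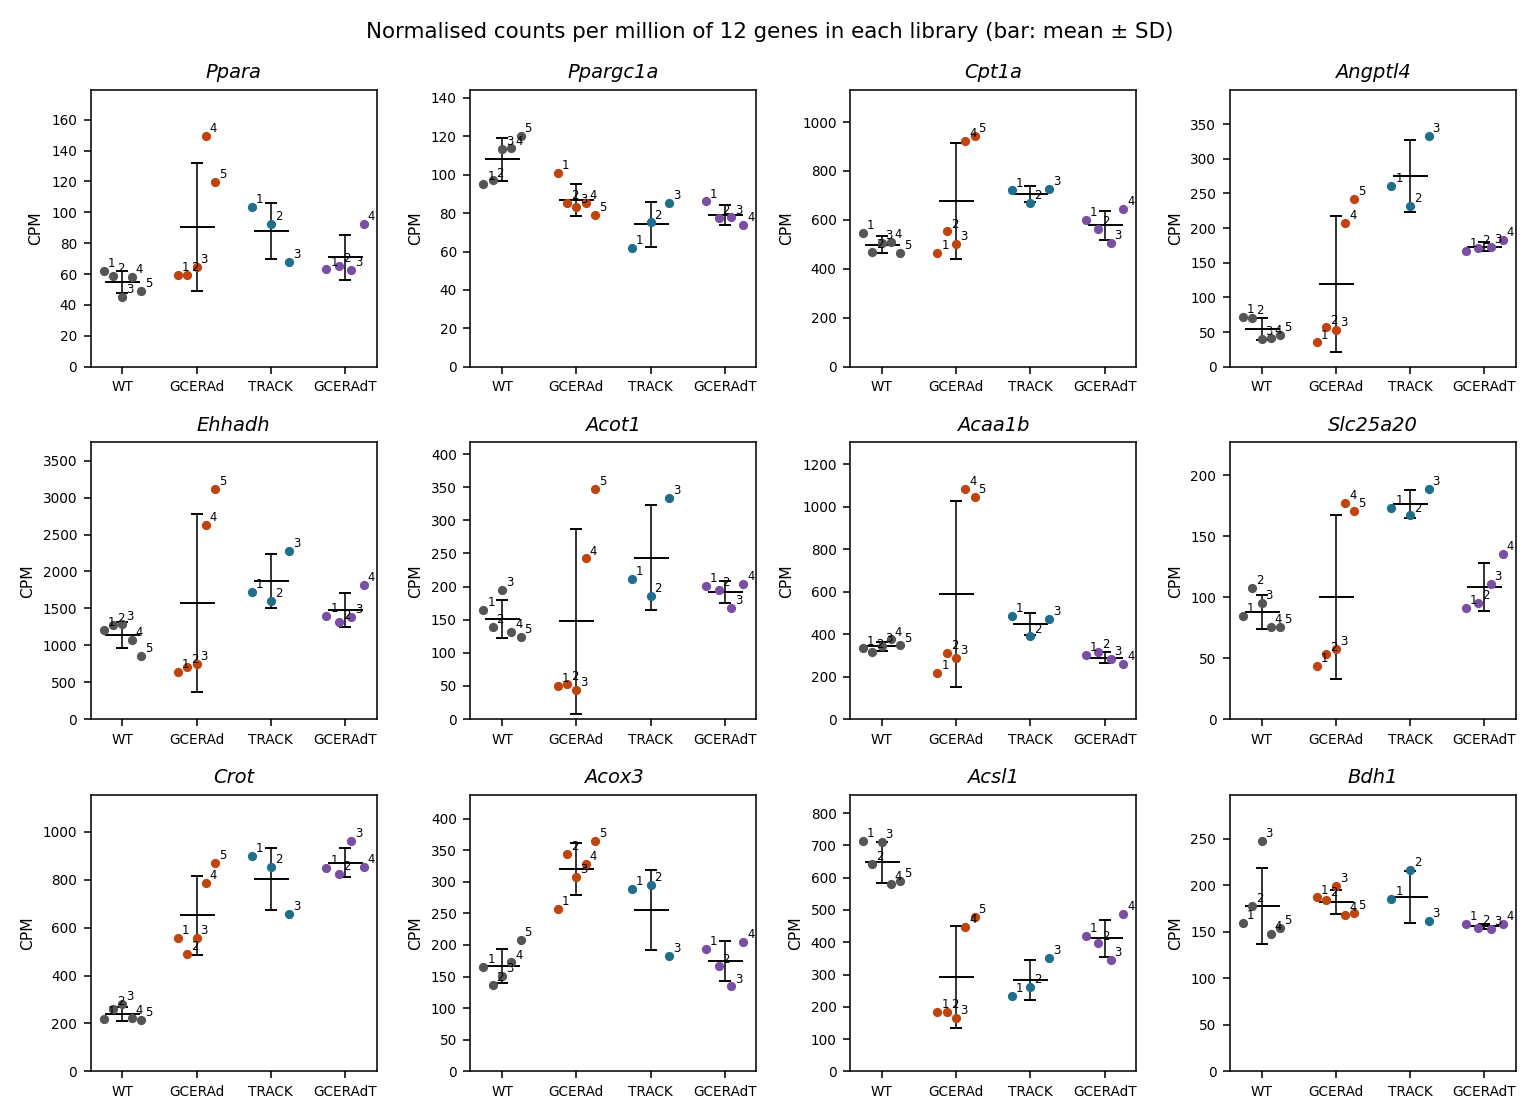
Counts scaled to library size (CPM, vertical axes from 0) of 12 genes in every library, by group, with replicate numbers at the points and mean ± SD as bars. Ehhadh, Acot1, Acaa1b and Slc25a20 show GCERAd 1 to 3 below and GCERAd 4 and 5 above all WT libraries, whereas Crot and Acox3 are above and Acsl1 is below WT in all 5.

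**Figure D3:**
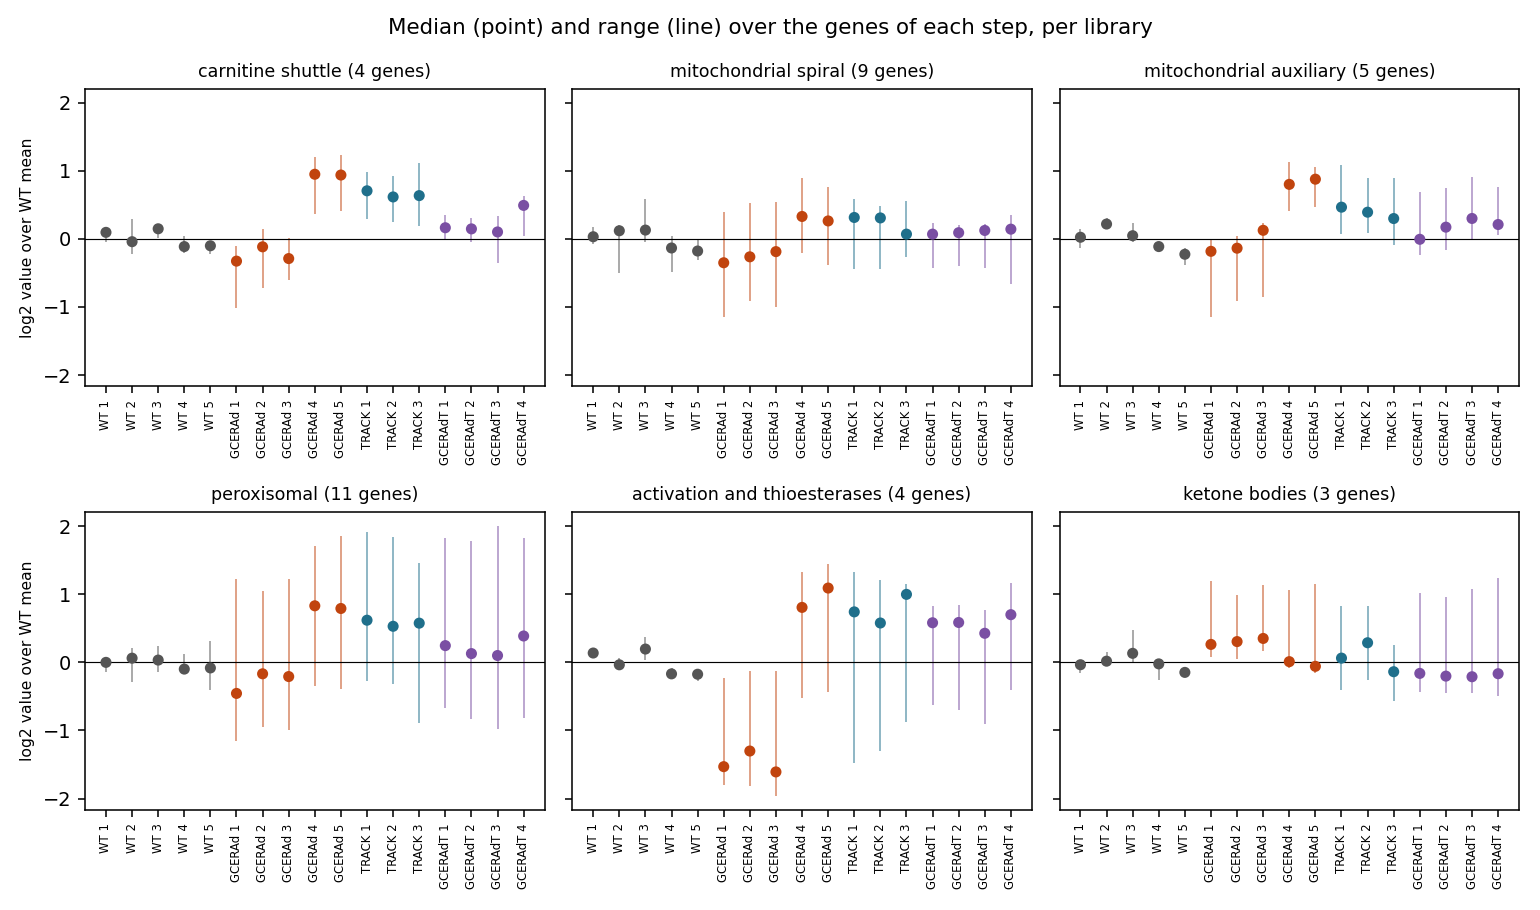
Median (point) and range (line) of the log2 level over the WT mean, per library, for the 6 steps with 3 or more tested genes. In the carnitine shuttle the medians of GCERAd 1 to 3 lie between -0.33 and -0.12 and those of GCERAd 4 and 5 at 0.95 and 0.94.

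Because of that order, GCERAd was also compared with WT without GCERAd 4 and 5, and without GCERAd 1, 2 and 3, choices made after the values were seen. The libraries were divided by an order seen in these same genes, and GCERAd 2 and 3 may be repeats, so the values describe the libraries and no p-values are given. Without GCERAd 4 and 5, 19 of the 39 genes passed the threshold, 5 higher and 14 lower, with 30.9% of all genes past it. The lowest log2 changes were those of Acsl1 (-1.86), Acot1 (-1.62), Acot2 (-1.35) and Decr2, the peroxisomal dienoyl-CoA reductase (-1.03). In the mitochondrial spiral Acaa2 had a log2 change of -0.98 and Hadha, the α subunit of the trifunctional protein, one of -0.80.

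Without GCERAd 1, 2 and 3, 32 genes passed, 29 higher and 3 lower, with 34.3% of all genes past the threshold. Angptl4 had a log2 change of 2.03, Crot one of 1.76, Acaa1b one of 1.61, the acetyl-CoA thioesterase Acot12 one of 1.36 and Ppara one of 1.27. Of the 8 genes called with all 5 libraries, 6 passed in the former comparison and all 8 in the latter. Crot, Acat1, Acox3 and Acads were higher in both, and Acsl1 and Acox2 lower in both. For Acat1 the log2 changes were 1.12 and 1.08. The sign of the log2 change over all 5 libraries turned for 17 of the 39 genes in the former, such as Ehhadh (from 0.44 to -0.70), and for 8 in the latter.

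**Figure D4:**
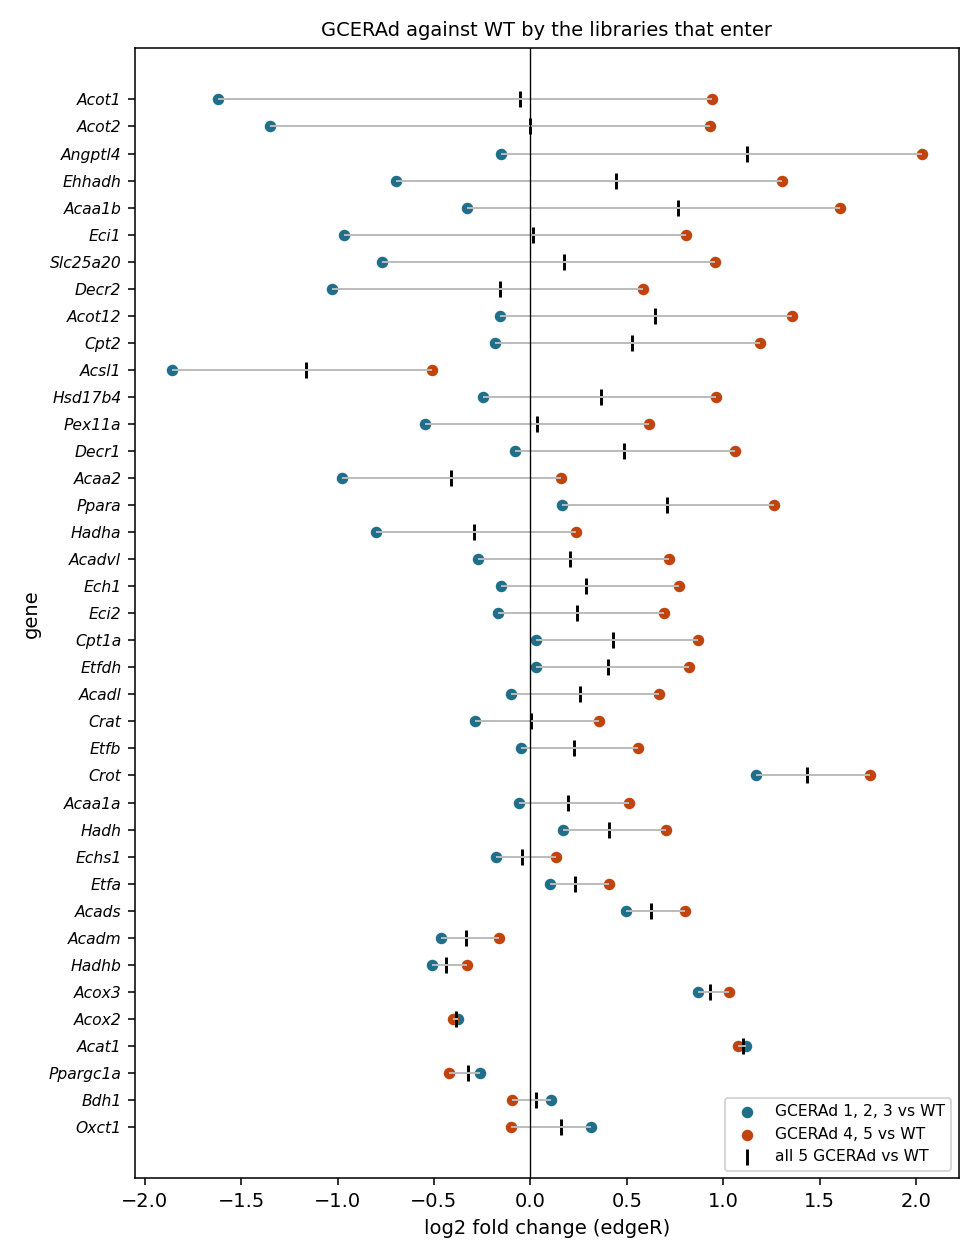
Log2 fold change against WT (edgeR) of each of 39 genes from GCERAd 1, 2 and 3 (blue), from GCERAd 4 and 5 (orange) and from all 5 (black bar), sorted by the distance between the first pair. The points of Acot1 lie at -1.62 and 0.94, while those of Acat1, Acox2 and Acox3 nearly coincide.

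Other values moved with this order. GCERAd 4 and 5 had 12.4% and 12.5% of their counts on mitochondrially encoded genes against 15.1% to 16.3% in GCERAd 1 to 3 and 17.1% to 19.1% in WT. The summed proximal tubule markers were 7482 and 7281 CPM in GCERAd 4 and 5 and 8961, 10114 and 9158 CPM in GCERAd 1 to 3, and the 4 collecting duct markers were 333 and 316 CPM against 500.04, 527 and 566 CPM, with 759 to 955 CPM in WT. The thick ascending limb markers were 4678 and 4346 CPM in GCERAd 4 and 5 and 3360 to 3996 CPM in GCERAd 1 to 3, and those of the distal convoluted tubule 616 and 521 CPM against 775 to 788 CPM. Podocyte markers were 362 and 385 CPM against 282 to 309 CPM, and endothelial markers 217 and 211 CPM against 188 to 205 CPM. The sum of 5 ATF4 targets (Atf5, Eif4ebp1, Asns, Chac1 and Trib3) was 30.4 and 29.3 CPM in GCERAd 4 and 5. It was 25.1, 25.8 and 22.96 CPM in GCERAd 1 to 3 and 36.6 to 39.98 CPM in WT. Among these targets Eif4ebp1 followed the order, with 13.3 and 12.5 CPM against 8.35 to 8.67 CPM. Atf5 did not, with 12.9 and 13.7 CPM against 11.5 to 13.8 CPM. Library kind did not follow the order, since GCERAd 3 was of kind B as were GCERAd 4 and 5. The sum of 8 adipocyte markers was 43.1 to 71.4 CPM in WT and 38.2 to 92.2 CPM in GCERAd, and the defining marker Adipoq, at 4.93 and 3.88 CPM in GCERAd 2 and 3, was at most 0.106 CPM in GCERAd 1, 4 and 5. The part of these values in the results was not tested.

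GCERAdT was compared with TRACK to ask the same of the labelled knockout in the cancer model. No gene of the panel was called higher and 6 of 39 were called lower, with 7.09% of all 11928 genes called, 2.81% higher and 4.28% lower (edgeR). Before adjustment, at p of at most 0.05, 2 were higher and 20 lower, with 25.1% of all genes at that level, and DESeq2 called 2 higher and 16 lower. The groups did not overlap for 19 of the 39 genes, against 22.9% of all genes, and the panel's median log2 change was -0.27 beside 0.01 over all genes. All 12 libraries with the TRACK or knockout label had Y-linked transcripts, so sex as read from them did not differ within this comparison. In a fit of all 17 libraries, which shares 1 spread over the groups, none of the 6 genes was called. The 5 ATF4 targets named above summed to 105.7 to 159.5 CPM in TRACK and 126.7 to 154.3 CPM in GCERAdT, which overlapped. Of these 5 targets 1 was called lower in GCERAdT and 4 were not called, with log2 changes from -1.16 to 0.45. In TRACK against WT all 5 were called higher, and in GCERAd against WT both of the 2 tested were called lower. Whether ATF4 was lost in the GCERAdT libraries was not tested.

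**Figure D5:**
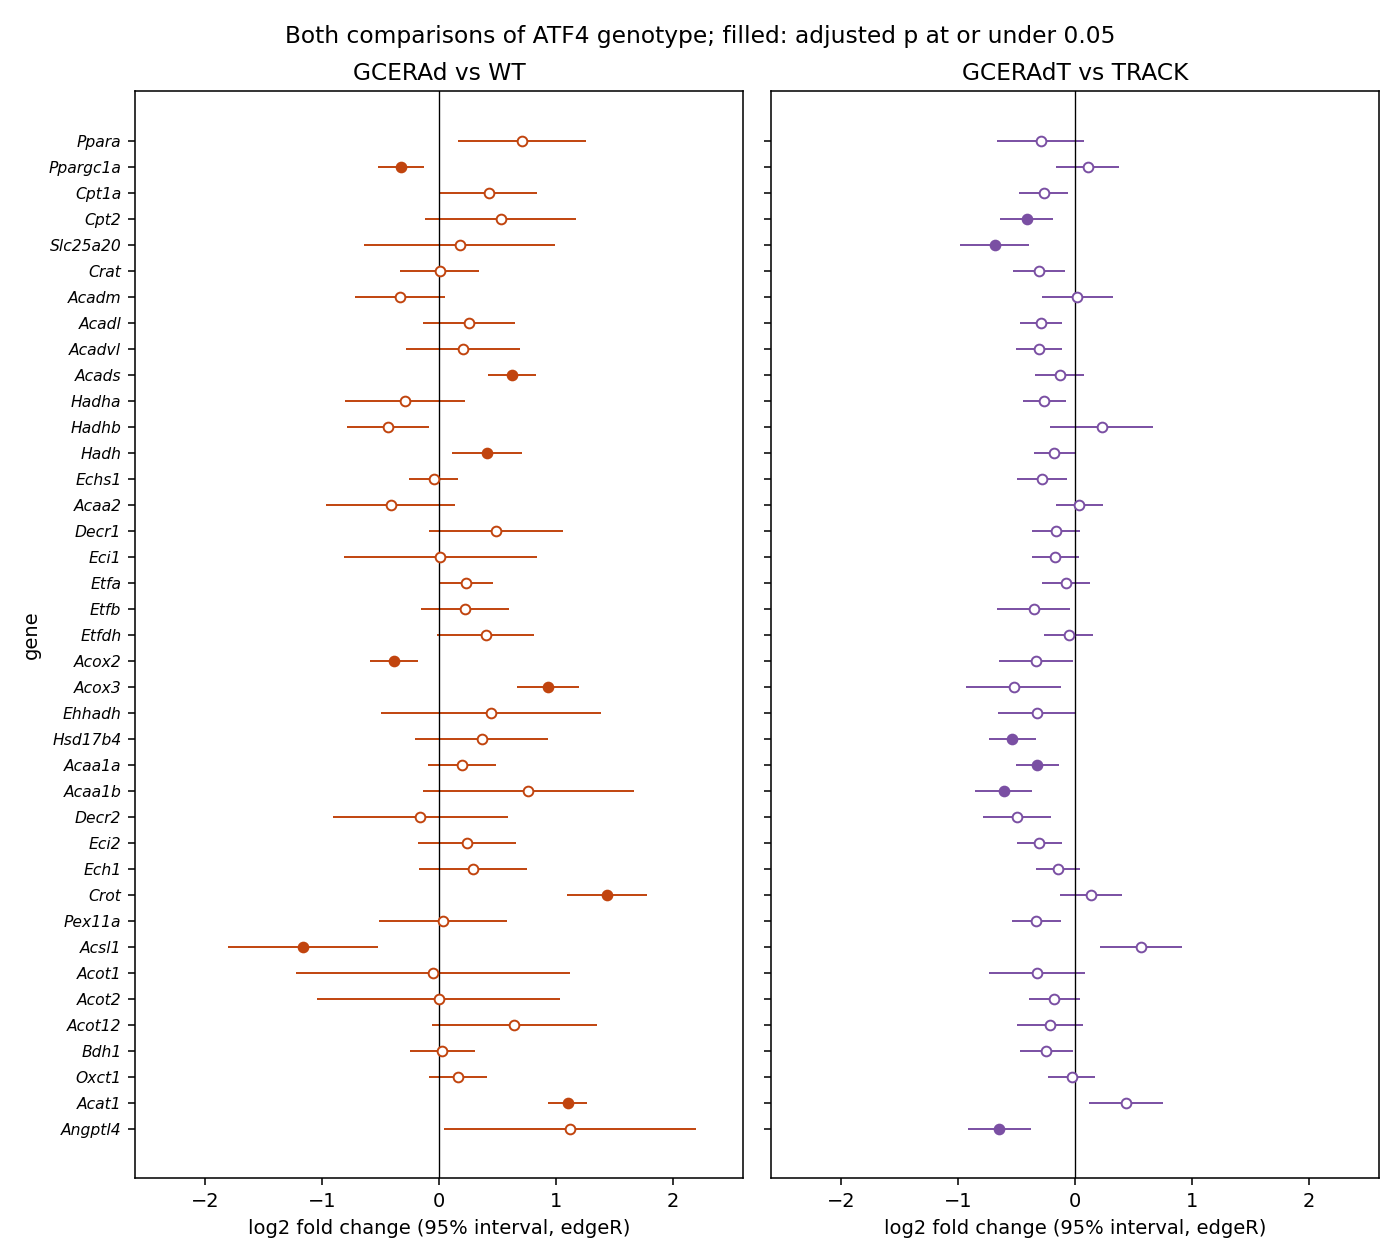
Log2 fold changes with 95% intervals (edgeR) of 39 genes in GCERAd against WT (left) and GCERAdT against TRACK (right), with filled points for an adjusted p of at most 0.05. On the right 32 of 39 points lie below 0, and the intervals on the left are widest for Acot1, Angptl4 and Acot2.

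Slc25a20, the carnitine-acylcarnitine translocase of the inner mitochondrial membrane, fell most. It had 174, 167 and 189 CPM in TRACK 1 to 3 and 91.4, 95.4, 111 and 135 CPM in GCERAdT 1 to 4. All GCERAdT libraries were below TRACK, with a log2 change of -0.69 ± 0.13 (edgeR adjusted p = 0.0151), a call lost without GCERAdT 2. Cpt2, which restores acyl-CoA inside the mitochondrion, had 292, 277 and 262 CPM in TRACK against 203, 195, 179.6 and 242 CPM in GCERAdT. The groups did not overlap, but its log2 change of -0.41 ± 0.10 (edgeR adjusted p = 0.0407) kept its call only without GCERAdT 4 among the 7 fits that left out a library.

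In the peroxisome Acaa1b had 485, 389 and 472 CPM in TRACK and 299.9, 317, 283 and 258 CPM in GCERAdT. It did not overlap between the groups, with a log2 change of -0.61 ± 0.11 (edgeR adjusted p = 0.0121), and was not called without TRACK 1. The bifunctional enzyme Hsd17b4 had 470.4, 446 and 446 CPM in TRACK and 313, 288, 283 and 351 CPM in GCERAdT. Each TRACK library exceeded each GCERAdT library, the log2 change was -0.54 ± 0.09 (edgeR adjusted p = 0.00846), and it was called in all 7 fits that left out a library. Acaa1a had a log2 change of -0.32 (edgeR adjusted p = 0.0486), called in 1 of those 7 fits.

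Angptl4 had 261, 232 and 333 CPM in TRACK and 168, 171, 172 and 183 CPM in GCERAdT, and was called in all 7 fits too. The log2 change was -0.65 ± 0.12 (edgeR adjusted p = 0.0141). The 8 adipocyte markers summed to 51.8 to 157 CPM in TRACK and 43.6 to 70.2 CPM in GCERAdT. Of the 4 adipocyte markers tested, 3 (Adipoq, Cfd and Cidec) were called lower in GCERAdT. Adipoq was at 7.99 CPM in TRACK 1 and between 0 and 0.0977 CPM in the other TRACK and all GCERAdT libraries, while Cidec was at 16.1, 3.65 and 1.82 CPM in TRACK 1 to 3 and 0.981 to 1.76 CPM in GCERAdT. Podocyte markers summed to 454 to 467 CPM in TRACK and 304 to 377 CPM in GCERAdT, with 1 of the 3 called lower. Endothelial markers summed to 299 to 329 CPM and 249.9 to 275 CPM, with none of the 3 called. Of the 3 injured tubule markers 2 were called lower and 1 higher. Among 3 thick ascending limb and 3 distal convoluted tubule markers, 1 of each was called higher. No tested marker of the proximal tubule, the collecting duct or leukocytes was called. The part of these cells in the results was not tested. With library kind as a covariate, all TRACK libraries being of kind B, the calls of Angptl4, Cpt2 and Acaa1a were lost and 3 remained.

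Most of the panel did not pass: none of the 9 genes of the mitochondrial spiral, with log2 changes from -0.31 (Acadvl, the very long-chain dehydrogenase) to 0.23 (Hadhb), none of the 5 auxiliary genes and none of the 4 of activation and cleavage. Ppara had 103, 92.5 and 68.0 CPM in TRACK 1 to 3 and 63.0, 65.5, 62.5 and 92.5 CPM in GCERAdT 1 to 4, where GCERAdT 4 reached the level of TRACK 2 (edgeR adjusted p = 0.306). Cpt1a had 720.3, 669 and 727 CPM in TRACK and 600.0, 562, 506 and 644 CPM in GCERAdT, without overlap (log2 change -0.27, edgeR adjusted p = 0.114). Bdh1 had 185, 217 and 161 CPM against 158, 154, 153 and 158 CPM, also without overlap (log2 change -0.24, edgeR adjusted p = 0.169). For Ppargc1a the values were 61.7, 75.1 and 85.4 CPM in TRACK and 86.1, 77.6, 77.7 and 73.8 CPM in GCERAdT, and the groups overlapped.

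The ATF4 comparisons were set against each other in a fit of all 17 libraries, as the change in GCERAdT against TRACK minus that in GCERAd against WT. The difference was called for 9 of 39 genes, 2 higher and 7 lower, with 25.1% of all 12208 genes called, 12.3% higher and 12.8% lower. At an unadjusted p of at most 0.05 it was 18 genes, with 37.8% of all genes. For Acox3 it was -1.45 ± 0.23 (edgeR adjusted p = 0.00031), where the separate comparisons gave 0.93 against WT and -0.52 against TRACK. Its TRACK libraries had 289, 295 and 182 CPM, overlapping the GCERAdT libraries given for the last comparison. For Crot it was -1.29 ± 0.22 (edgeR adjusted p = 0.000548), where they gave 1.44 and 0.14. Crot had 901, 856 and 657 CPM in TRACK 1 to 3 and 848, 824, 963 and 853 CPM in GCERAdT 1 to 4, so these groups overlapped. For Acsl1 it was 1.73 ± 0.41 (edgeR adjusted p = 0.00553), where they gave -1.16 and 0.56. Acsl1 had 233, 261 and 352 CPM in TRACK and 418, 396, 346 and 487 CPM in GCERAdT, which overlapped only at TRACK 3 and GCERAdT 3. Acads (-0.75), with 209, 197 and 165 CPM in TRACK, and Acat1 (-0.66) were called as well, and these 5 genes were called in all 17 fits that left out a library. Ppara (-1.0), Hadh (-0.58), Acaa1a (-0.51) and Ppargc1a (0.44) were called with all libraries but not in each of those fits. Genotype and sex cannot be told apart on the WT side of this difference. Without GCERAd 4 and 5 the difference passed the threshold for 13 genes, 7 higher and 6 lower, with 23.8% of all genes past it. Without GCERAd 1, 2 and 3 it passed for 33 genes, 2 higher and 31 lower, with 35.6% of all genes past it. Of the 9 genes, 6 were among the former and 9 among the latter. The libraries were divided by an order seen in these same genes. These counts therefore describe the libraries and add nothing to the calls. With the replicate number as a block the difference was called for 10 genes, without Ppargc1a and with Hsd17b4 and Cpt1a added.

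TRACK was compared with WT to show the state of these genes in the cancer model itself. Most of the panel was higher: 26 of 39 genes rose and 5 fell, with 45.6% of all 11967 genes called, 23% higher and 22.6% lower. At an unadjusted p of at most 0.05 it was 32 genes, with 53.1% of all genes. No values overlapped for 26 genes, against 44.3% of all genes, and the median log2 change was 0.45 beside -0.01 over all genes. TRACK and GCERAd were compared with the same WT libraries, and all TRACK libraries were of kind B against 1 of the 5 WT libraries. With kind as a covariate 17 genes were called, 14 higher and 3 lower. Genotype and sex cannot be told apart here either. Markers of cell types moved as well. All 3 distal convoluted tubule markers were called lower in TRACK. So were 3 of 4 collecting duct and 2 of 3 thick ascending limb markers. Of the 7 proximal tubule markers 4 were called lower and 1 higher. The 3 injured tubule markers summed to 1.66 to 4.05 CPM in WT and 20.8 to 50.3 CPM in TRACK, and all 3 were called higher. Endothelial markers summed to 161 to 189 CPM in WT and 299 to 329 CPM in TRACK, and all 3 were called higher. Podocyte markers summed to 280.3 to 383 CPM and 454 to 467 CPM, but only 1 of the 3 was called higher. The log2 changes of the podocyte markers ran from -0.19 to 0.63. Of the 4 adipocyte markers tested 2 were higher, and the share of counts on mitochondrially encoded genes was 17.1% to 19.1% in WT and 11.6% to 12.3% in TRACK. The part of these values in the results was not tested.

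Angptl4 rose most, from 40.4 to 71.3 CPM in the WT libraries given above to 232 to 333 CPM in TRACK, with no overlap and a log2 change of 2.35 ± 0.21 (edgeR adjusted p = 2.64e-05). In Crot all TRACK libraries were above WT, with a log2 change of 1.75 ± 0.12 (edgeR adjusted p = 4.09e-06). Pex11a, a factor of peroxisome division, had 89.2, 92.3, 86.0, 77.9 and 80.0 CPM in WT and 199.8, 179.9 and 192 CPM in TRACK. The groups stood well apart, with a log2 change of 1.16 ± 0.08 (edgeR adjusted p = 3.44e-06). Acot12 had 207, 196, 192, 176 and 166 CPM in WT and 473, 432 and 339.6 CPM in TRACK, again without overlap (log2 change 1.14 ± 0.11, edgeR adjusted p = 3.12e-05).

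Acsl1 was below WT in all 3 TRACK libraries, with a log2 change of -1.20 ± 0.14 (edgeR adjusted p = 0.000109). The other genes that fell were Ppargc1a (-0.54), Acox2 (-0.47), Oxct1 (-0.41) and Acaa2 (-0.32). In the carnitine shuttle all 4 tested genes rose, Slc25a20 by a log2 change of 1.01, Cpt2 by 0.81, Cpt1a by 0.50 and Crat, the carnitine acetyltransferase, by 0.24. Ppara rose by 0.68 ± 0.14 (edgeR adjusted p = 0.00347), and its lowest TRACK library of 68.0 CPM lay above the highest WT library of 62.0 CPM. By step, 8 of 11 peroxisomal genes rose and Acox2 fell, 4 of 9 genes of the mitochondrial spiral rose, led by Acadl, the long-chain dehydrogenase (0.54), and Acaa2 fell, and 4 of 5 auxiliary genes rose, led by the dienoyl-CoA reductase Decr1 (0.96). With kind as a covariate the calls of Ppara, Ppargc1a, all 4 risers of the spiral (Acadl, Acadvl, Acads and Hadh), Eci1, Etfb, Etfdh, Acox2, Ehhadh, Ech1, Acot1 and Acat1 were lost. Of 8 fits that left out a library, those of Crat and Eci1 were lost in 6, that of Acads in 5 and that of Acaa2 in 3. Bdh1 had a log2 change of 0.08 (edgeR adjusted p = 0.716) with overlapping groups.

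The last comparison, GCERAdT with GCERAd, asked how the cancer model differed among mice with the knockout label. It shares the GCERAd libraries with the comparison with WT and the GCERAdT libraries with that with TRACK. Of the 39 genes, 1 was called higher and 5 lower, with 19.2% of all 11816 genes called, 9.39% higher and 9.79% lower. The groups did not overlap for 8 genes, against 19.5% of all genes. Same-numbered libraries deviated together here, and with the replicate number as a block 17 genes were called, 9 higher and 8 lower, with 31.9% of all genes called. At an unadjusted p without the block it was 11 genes, with 32.3% of all genes. Atf4 itself was higher in GCERAdT (log2 change 0.52, edgeR adjusted p = 0.0108).

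Acox3, given above for GCERAd, had 194, 166, 134 and 206 CPM in GCERAdT 1 to 4, all below GCERAd, with a log2 change of -0.86 ± 0.14 (edgeR adjusted p = 0.00199). Oxct1 had 1539, 1583, 1635, 1291 and 1152 CPM in GCERAd 1 to 5 and 951, 942, 937 and 914 CPM in GCERAdT. Every GCERAdT library was lower, with a log2 change of -0.61 ± 0.12 (edgeR adjusted p = 0.00662). Acads had 165, 166, 171 and 183 CPM in GCERAdT, below all GCERAd libraries (log2 change -0.50 ± 0.10, edgeR adjusted p = 0.0082).

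Acadm was the gene called higher, with 998, 902, 950.4, 1174 and 1220.2 CPM in GCERAd and 1379.5, 1427, 1528 and 1458 CPM in GCERAdT. Every GCERAdT library was higher, and the log2 change was 0.48 ± 0.11 (edgeR adjusted p = 0.0112), a call lost, as was that of Acaa1a, when the possible repeat libraries were summed. Acaa1a had 108, 116, 117, 173 and 174 CPM in GCERAd and 95.1, 91.5, 88.2 and 102 CPM in GCERAdT, with a log2 change of -0.53 ± 0.15 (edgeR adjusted p = 0.0351) that was lost without GCERAd 4 or 5 and without each GCERAdT library. Acox2 had a log2 change of -0.43 (edgeR adjusted p = 0.00711). Under the block Acot2 had the largest rise, 1.63 ± 0.37 (edgeR adjusted p = 0.0179), followed by Acot1 with 1.44 and Angptl4 with 1.37, beside 0.82, 0.40 and 0.57 without the block. GCERAd 5 has no GCERAdT library of its number and drops out of the blocked comparison, which leaves GCERAd 1 to 3 and GCERAd 4.

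The direction of the uncalled genes depended on the GCERAd libraries used. Without GCERAd 4 and 5, 22 genes passed the threshold as higher and 6 as lower in GCERAdT, with 28.3% of all genes past it, and without GCERAd 1, 2 and 3, 1 was higher and 27 were lower, with 16.2% of all genes past it. Ehhadh had log2 changes of 1.10 and -0.92 in these fits, beside -0.07 with all libraries. All 6 genes called with the whole group passed in both. This division of GCERAd came from the order seen in these same genes. The counts therefore describe the libraries and add nothing to the 6 calls.

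Further genes of fatty acid handling came from a list of 45. In GCERAd against WT 14 of 43 tested rose and 8 fell, where 14.1% and 13.5% of all genes did. The largest changes were in Acsm3, a medium-chain acyl-CoA synthetase (log2 change 7.34), Fabp1, a fatty acid binding protein (-2.64), Cd36, a fatty acid transporter (1.81), Acsm2 (1.72), Amacr, a racemase for branched chains (1.48), and Acot7 (-1.43). For this list in TRACK against WT, 12 of 43 rose and 15 fell, where 23% and 22.6% of all genes did. Its log2 changes there ran from -1.68 to 7.37. Genotype and sex cannot be told apart in either comparison with WT. In GCERAdT against TRACK none of 42 rose and 7 fell, where 2.81% and 4.28% of all genes did, among them Acot11 (-0.88), Acsl4 (-0.80), the transporter Slc27a2 (-0.42), Acot8 (-0.41), malonyl-CoA decarboxylase Mlycd (-0.38) and Abcd3 (-0.36), all called by edgeR.

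A list of 21 genes held the PPAR family with its partners and targets outside oxidation. In GCERAd against WT 4 of 17 tested rose and none fell, beside the same shares of all genes: Cyp4a12a (log2 change 4.81), the lipid droplet coat protein Plin2 (1.42), the coenzyme A carrier Slc25a42 (0.67) and Rxra (0.51). In GCERAdT against TRACK none of 18 rose and 9 fell (4.28% of all genes fell), led by Plin2 (-1.05), Gpd1 (-1.03), the droplet protein Plin5 (-0.79), the lipase Pnpla2 (-0.70), Rxra (-0.46) and the ω-hydroxylase Cyp4a31 (-0.40). In TRACK against WT 14 of 18 rose and 2 fell, where 23% and 22.6% of all genes did. The 4 genes that rose in GCERAd were among these 14: Cyp4a12a (2.42), Plin2 (2.71), Slc25a42 (0.41) and Rxra (0.54). Both comparisons use the same WT libraries, so their calls are not independent. Genotype and sex cannot be told apart in either comparison with WT.

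In 8 of the 17 genes of that list tested in GCERAd against WT, the WT libraries lay between GCERAd 1 to 3 and GCERAd 4 and 5, against 1.52% of all genes. Cyp4a14, a fatty acid ω-hydroxylase, had 87.2, 50.6 and 48.8 CPM in GCERAd 1 to 3 and 2551 and 3455 CPM in GCERAd 4 and 5, with WT between 1642 and 2434 CPM. Pdk4, the kinase that shuts off pyruvate dehydrogenase, had 9.51, 15.2 and 17.4 CPM, then 222 and 237 CPM, with WT between 27.8 and 47.2 CPM. Neither was called in GCERAd against WT, with log2 changes of -0.69 (edgeR adjusted p = 0.657) and 1.33 (edgeR adjusted p = 0.25).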

How the data were processed

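Per the labels, RNA from kidney cortex was made into TruSeq stranded mRNA libraries; the authors trimmed reads with cutadapt after bcl2fastq 2.20, aligned them with STAR to GRCm38 and counted them with HTSeq. The deposited values are raw read counts per gene, without normalization; annotation release, strand setting and treatment of multiple matches are not given in the sources used here. The panel, lists and tests were chosen with earlier results of these data known. Genes whose mean FPKM reached 1 in any compared group were fitted with edgeR 4.0.16 (quasi-likelihood test, TMM scaling; limma 3.58.1, R 4.3.3), 2 groups at a time, or all 17 libraries for the difference of the ATF4 contrasts, and p-values, which measure only the spread between these libraries, were adjusted over all genes by the Benjamini-Hochberg method. A gene was called at an adjusted p of at most 0.05. CPM values were TMM-scaled over all 17 libraries. Total counts were 53688512 to 71364561 per library; 360 of 48795 genes had no length in GENCODE M21 and were not tested.

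Values in every library are given for Ppara, Ppargc1a, Cpt1a, Bdh1 and Angptl4, for up to 10 called genes of largest change in GCERAd against WT and 5 in each other comparison, plus some shown for the order of the GCERAd libraries, chosen after their values were seen; up to 6 called genes of each other list are named per ATF4 comparison. Some genes of the lists are not reported here. Replicate numbers were checked as pairs: only in GCERAdT against GCERAd did all same-numbered libraries deviate together (correlations 0.48, 0.65, 0.61 and 0.46), and there each number was also of 1 library kind. The fitting procedure was tested on simulated counts with independent libraries and the same relative spread for all genes. Those counts held no library kinds, repeat libraries or divided groups, so that test says nothing about these features. Alternatives were DESeq2 1.42.0, RLE scaling, no FPKM minimum or one of 5, a replicate block, library kind, summed repeat libraries, 1 fit of all libraries, unadjusted p and each library left out; leaving out several GCERAd libraries was added after seeing the data.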

Additional observations from a re-analysis of the deposited data

Results flagged for a closer look

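Of 117 pairs of a gene and a group with 4 or 5 libraries, 3 held a library far from the others by Dixon's criterion, which chance alone gives in about 5% of groups. Hadhb, the β subunit of the trifunctional protein, had 102 CPM in GCERAd 3 against 156 to 177 CPM in the other GCERAd libraries, a gap of 0.723 of the group's range. Its log2 level over the WT mean was also lowest in WT 2 among WT (-0.50). It was -0.43 and -0.66 in GCERAdT 3 and 4 against 0.15 in GCERAdT 1 and 2. WT 2, GCERAd 3 and GCERAdT 3 and 4 were of kind B, but so were GCERAd 4 and 5 (-0.21 and -0.39). The part of library kind in this gap was not tested. Ppara had 92.5 CPM in GCERAdT 4 against 62.5 to 65.5 CPM in the other GCERAdT libraries (0.897 of the range), and Ehhadh had 1813 CPM there against 1308 to 1393 CPM (0.832 of the range).

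The change in GCERAdT against TRACK differed from that in GCERAd against WT for 9 genes (edgeR, test of the difference). On the log2 scale the difference was -1.45 for Acox3, -1.29 for Crot, -1.0 for Ppara, -0.75 for Acads, -0.66 for Acat1, -0.58 for Hadh, -0.51 for Acaa1a, 0.44 for Ppargc1a and 1.73 for Acsl1. The calls of Ppara, Ppargc1a and Acaa1a were each lost in 12 of the 17 fits that left out a library, and that of Hadh without TRACK 1.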

How the results depend on the processing

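For the counts of called genes, 79 of 101 alternative values lay within 1.5 times the reported count. In GCERAd against WT (8 genes) the count was 13 by unadjusted p, 19 without GCERAd 4 and 5, 32 without GCERAd 1, 2 and 3, and 6 to 11 with each library left out. In GCERAdT against TRACK (6) it was 18 with DESeq2, 22 by unadjusted p, 3 with library kind as a covariate and 1 with all 17 samples in 1 fit, in which none of the 6 calls was kept; with each library left out it was 3 to 10, the extremes without TRACK 1 or GCERAdT 2 (3 each) and without GCERAdT 4 (10). In TRACK against WT (31) it was 17 with kind as a covariate, 20 in 1 fit of all samples, and 25 to 31 with each library left out. In GCERAdT against GCERAd (6) it was 17 with the replicate block, 10 with kind, 11 by unadjusted p, 28 without GCERAd 4 and 5, 28 without GCERAd 1, 2 and 3, and 5 to 7 with each library left out. For the difference of the ATF4 contrasts (9) it was 5 with kind, 18 by unadjusted p, 33 without GCERAd 1, 2 and 3, and 5 to 16 with each library left out (16 without GCERAd 1, 5 without TRACK 1). The replicate block gave 6, 5 and 24 genes in the first 3 comparisons, where same-numbered libraries did not deviate together, and 10 for the difference, for which they did so between GCERAd and GCERAdT. The sign turned for 9 of 39 genes in GCERAd against WT in at least 1 of the fits that left out a library (Acot1, Acot2, Bdh1, Crat, Decr2, Echs1, Eci1, Pex11a and Slc25a20), for 4 in GCERAdT against TRACK, 4 in TRACK against WT, 12 in GCERAdT against GCERAd and 5 for the difference. Without GCERAd 4 and 5 it turned for 17, 12 and 8 genes in GCERAd against WT, GCERAdT against GCERAd and the difference, and without GCERAd 1, 2 and 3 for 8, 13 and 3. Of the genes followed singly, in GCERAd against WT Bdh1 had -0.0051 with repeats summed, -0.10 without GCERAd 1, 2 and 3, and -0.027 to 0.17 with each library left out, Angptl4 had -0.15 without GCERAd 4 and 5, and Ehhadh had -0.23 with kind and -0.70 without GCERAd 4 and 5. In GCERAdT against TRACK Hadhb had -0.16 with kind and Ppargc1a -0.013 without TRACK 1. In TRACK against WT Bdh1 had -0.038 with the block and -0.038 without TRACK 2. In GCERAdT against GCERAd Ehhadh had 0.61 with the block, 0.25 with kind, 1.10 without GCERAd 4 and 5 and -0.27 to 0.35 with each library left out, Ppara had 0.23 and Cpt1a 0.21 without GCERAd 4 and 5, and without GCERAd 1, 2 and 3 Angptl4 had -0.33, Acot1 -0.58 and Acot2 -0.10. The causes were not tested. Over all genes, 846 were called in GCERAdT against TRACK but 1562 with DESeq2, 462 with kind and 498 with repeats summed, 5458 in TRACK against WT but 2776 with kind and 3431 with the block, 2266 in GCERAdT against GCERAd but 3770 with the block and 1168 with repeats summed, and 3198 in GCERAd against WT but 2106 with the block. Cpt1b was too low to test, and 3 to 5 libraries per group limit the precision.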
